A study of Mus musculus with 6 samples.

Results

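The genes examined here were 8 genes of 3 brain peptide systems, namely Grp, Grpr and Nmbr of the bombesin-like peptides, Trh, Trhr and Trhde of thyrotropin-releasing hormone, and Hcrtr1 and Hcrtr2 of the orexins. They were taken by gene identity, and all 8 were found among the 21006 genes measured. Grp, Trh and Hcrtr1 are 3 of the genes that the study picked as hubs of a protein interaction network. That choice was made from the same 6 libraries, so the differences of these genes are not independent evidence of a change. mRNA was measured in the prefrontal cortex of wild type male C57BL/6 mice aged 18 months per the age label, with 1 library per mouse. The sample titles carry a number that differs from this age. The PND mice (n = 3), a model of postoperative neurocognitive disorder, received isoflurane and had the abdomen opened and its organs inspected, followed by lidocaine cream and povidone iodine on the wound. The CON mice (n = 3) were left without anesthesia or surgery at that stage. Per the methods of the study, mice of both groups went through memory tests and were deeply anesthetized with isoflurane just before the tissue was taken, so CON mice also met isoflurane at the end.

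These peptides act on G-protein-coupled receptors that signal mainly through Gq and phospholipase C, which raises calcium in the cell. Gastrin-releasing peptide (Grp) is made by groups of excitatory neurons in cortex and elsewhere, and its receptor Grpr is found mainly on inhibitory interneurons, while Nmbr is the receptor of the related neuromedin B. Thyrotropin-releasing hormone (Trh) is best known from the hypothalamus, where it drives the thyroid axis, and it also acts as a neuromodulator through Trhr. Trhde, an enzyme on the cell surface, breaks the hormone down outside the cell. Orexins are made in the lateral hypothalamus and keep the brain awake through the receptors Hcrtr1 and Hcrtr2 on distant neurons.

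Trh is the member whose mRNA encodes the peptide most visibly, since the precursor carries the hormone in several copies. Each copy is encoded as Gln-His-Pro-Gly, in which the Gln and the Gly are later turned into the blocked ends of the hormone. The coding sequence of Trh in GENCODE M21 (GRCm38, minus strand, 256 codons) held 5 such runs. They are shown so that the product of this mRNA can be seen, with the 4 codons of the hormone in capitals and the next 2 codons, which encode the basic cleavage pair, in lower case.
Trh copy 1 (chr6:92243088-92243105): CAGCATCCGGGCaaaagg
Trh copy 2 (chr6:92242992-92243009): CAGCACCCTGGCcgacgt
Trh copy 3 (chr6:92242857-92242874): CAGCACCCTGGCaggcga
Trh copy 4 (chr6:92242803-92242820): CAGCATCCAGGCcggagg
Trh copy 5 (chr6:92242710-92242727): CAGCATCCTGGCaaaagg
The same run of codons occurred at least once in 71 of 21817 protein-coding genes (0.325%), searched in frame on the coding strand, and Trh was the 1 gene with 2 or more.

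The deposited values were FPKM, a fragment count corrected for exon length and library size, so levels can be compared between genes. Ratios between libraries allowed the whole number of fragments behind each value to be recovered for all 8 genes, at an effective depth of 7193223 to 9387995 fragments per library. The tissue label was set beside markers of cortex, hypothalamus and striatum. All 10 markers of cortical glutamatergic neurons were present, with a summed level of 215 to 261 FPKM in PND and 205 to 330 FPKM in CON. The summed level of 15 listed hypothalamic markers, of which 7 were measured, was 1.25 to 2.40 FPKM in PND and 1.32 to 2.88 FPKM in CON. Striatal markers were high, with a summed level of 134 to 153 FPKM in PND and 88.3 to 202 FPKM in CON. CON replicate 2 had both the lowest striatal sum (88.3 FPKM) and the highest glutamatergic sum (330 FPKM). The share of striatal tissue in each library was not tested. The libraries differed in their dependence on GC content. In the tenth of genes with the highest GC content, the median log2 deviation from the gene mean was -0.56 in CON replicate 1 and 0.49 in CON replicate 2. In PND it was lowest in replicate 2 (-0.30) and highest in replicate 3 (0.37).

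Across the 6 libraries the enzyme and the TRH receptor stood highest and the first orexin receptor lowest. Trhde had a mean level of 6.01 FPKM (range 4.81 to 6.60), followed by Trhr with 3.42 FPKM (2.62 to 4.34) and Hcrtr2 with 1.14 FPKM (1.04 to 1.22). Trhde lay above Trhr in 6 of 6 libraries, and Trhr above Hcrtr2 in 6 of 6, with no overlap of their ranges. The other 5 genes had a mean below 1 FPKM. These were Nmbr with 0.751, Trh with 0.460, Grp with 0.420, Grpr with 0.313 and Hcrtr1 with 0.0878 FPKM. From Hcrtr2 downwards the ranges of neighbours overlapped, so the order of Nmbr, Trh, Grp and Grpr was not set apart from the spread between mice. In relation to all genes measured, Trhde was at percentile 74.4 and Hcrtr1 at percentile 12.4 of the mean level. TRH receptor mRNA was thus more abundant than the mRNA of its ligand in each of these cortices. Of the 3 listed genes of the orexin system, the 2 receptors had values, and Hcrt, the ligand gene, was not analysed here.

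**Figure D1:**
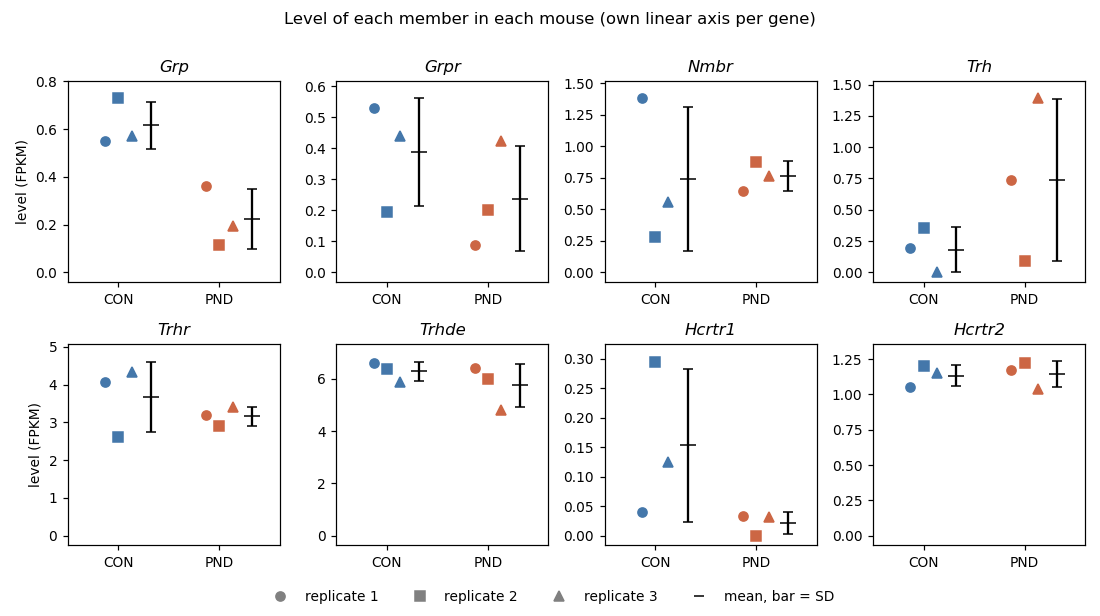
Level of the 8 genes in FPKM (vertical axis, linear, own range for each gene) in each CON and PND mouse, with marker shape for the replicate number and a bar for the mean ± SD of 3 mice. The 3 PND values of Grp (0.116 to 0.361) lie under its 3 CON values (0.549 to 0.729), Trh is spread from 0.0914 to 1.39 within PND, and Hcrtr2 stays between 1.04 and 1.22 in all mice.

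The spread between mice differed from gene to gene. The coefficient of variation over the 6 libraries was 6.70% for Hcrtr2, against 12.6% expected from counting its fragments alone. It was 10.8% for Trhde (4.49% from counting), 19.6% for Trhr (9%) and 49.0% for Nmbr (18.6%). The widest spreads were those of Trh, with 113% against 42.0% from counting, and of Hcrtr1, with 125% against 65.5%. Grp and Grpr had 56.5% and 55.6%, against 36.9% and 39.7% from counting. In Nmbr, Trh, Trhr and Trhde the mice thus varied over 2 times as much as counting gives.

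The comparison of PND with CON asked which of these genes differed in mice that had been operated on. It was made by limma on log2(FPKM + 0.1) for the 18185 genes that averaged 0.1 FPKM or more. Grp, the ligand of Grpr, was lower in PND and was the 1 gene of the 7 tested that passed the cut-off of the study, an absolute log2 fold change above 1 with an unadjusted p below 0.05. Over all genes tested, 1.33% passed this cut-off in either direction, 0.841% as higher and 0.484% as lower in PND. Passing was more frequent at low levels, with 3.10% of genes below 1 FPKM and 0.492% of those above. By sign, 3 of the 7 genes were higher in PND and 4 were lower. After Benjamini-Hochberg adjustment over all genes, 0 of the 7 had a p below 0.05 by limma, against 0.011% of all genes. An unadjusted p below 0.05 was found for 1 of the 7, against 3.13% of all genes, of which 1.73% were higher and 1.4% lower in PND. With voom on the recovered fragments these numbers were also 0 and 1. The groups did not overlap in 1 of the 7, Grp, against 7.66% of all genes tested (3.78% with PND above and 3.88% with PND below), and in Hcrtr1, which was below the filter. The p-values rest on the spread between 3 mice per group, which limma draws toward that of other genes at a similar level. In bulk tissue, fewer cells of a type cannot be told apart from less RNA per cell.

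**Figure D2:**
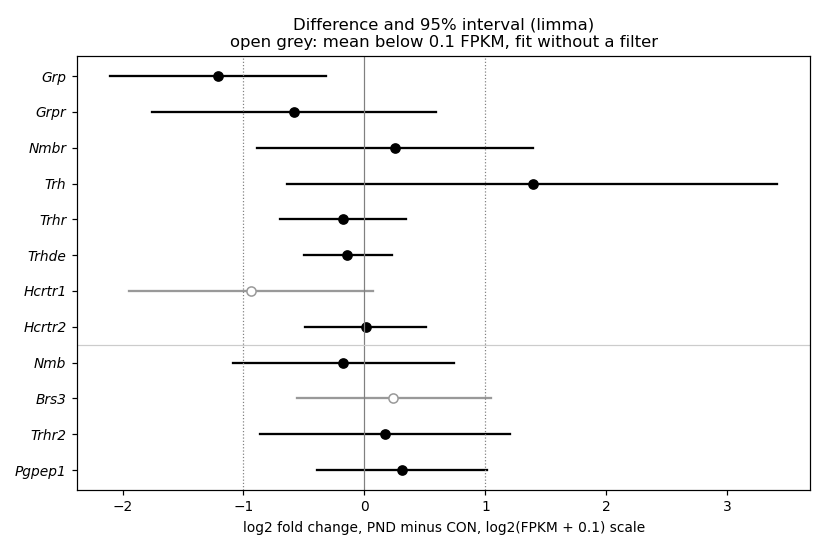
Log2 fold change of PND minus CON (horizontal axis, log2(FPKM + 0.1) scale) with its 95% limma interval for the 8 genes, above the grey line, and for 4 further genes of the same systems, below it. Open grey points are genes below the filter, fitted without it. Dotted lines mark the fold change of the cut-off, and the interval of Grp (-2.10 to -0.32) is the 1 interval of a tested gene that leaves out 0.

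Among the bombesin-like peptide genes, Grp (ENSMUSG00000024517, GRCm38 chromosome 18, 65872820 to 65886596) had 0.361, 0.116 and 0.195 FPKM in PND replicates 1 to 3. In CON replicates 1 to 3 it had 0.549, 0.729 and 0.572 FPKM. All 3 PND mice lay below all 3 CON mice, as was so for 3.88% of all genes tested. The mean of PND was 0.224 ± 0.126 FPKM (SD, n = 3) and that of CON 0.616 ± 0.0981 FPKM, which is 2.75-fold higher. On the log2 scale this was -1.21 (SE 0.38), and the unadjusted limma p was 0.0146, which became 0.9999 when adjusted over all genes. These levels rested on 7, 2 and 4 fragments in PND and on 9, 13 and 9 in CON. Per depth, CON held 2.73 times the fragments of PND, with an exact 95% interval of 1.39 to 5.68 that covers counting error only. The cut-off was no longer passed without PND replicate 2, the mouse with the lowest value, where the log2 fold change was -0.95 and the unadjusted p 0.0448. With a pseudocount of 1 the log2 fold change was -0.40, as most of the level of so low a gene is then pseudocount, and the unadjusted p was 0.00971.

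Grpr (ENSMUSG00000031364, chromosome X, 163513904 to 163549677), the receptor of this peptide, had 0.0896, 0.201 and 0.422 FPKM in PND replicates 1 to 3. Its CON values were 0.529, 0.195 and 0.441 FPKM. The groups overlapped, since PND replicate 3 was near the CON mice and CON replicate 2 near the lower PND mice. On the log2 scale PND was at -0.58 against CON (95% interval -1.76 to 0.59, unadjusted p 0.282), from 16 fragments in PND and 22 in CON. It moved to -0.23 without PND replicate 1 and to -0.96 without PND replicate 3. The interval holds both no difference and the value found for Grp.

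Nmbr (ENSMUSG00000019865, chromosome 10, 14705591 to 14770850), the receptor of neuromedin B, had 0.643, 0.879 and 0.763 FPKM in PND replicates 1 to 3. In CON it had 1.38, 0.284 and 0.557 FPKM, so the CON mice enclosed all PND mice. Their SD was 0.569 FPKM, against 0.118 FPKM among the PND mice. The difference was 0.25 on the log2 scale (95% interval -0.89 to 1.39, unadjusted p 0.623), and it was 0.77 without CON replicate 1 and turned to -0.20 without CON replicate 2. Its fragments, 27 to 34 in PND and 11 to 49 in CON, left the CON mice further apart than counting error. An exon of Nmbr overlaps B230364G03Rik on the opposite strand, so reads of that gene may be included. The ligand of Nmbr, Nmb, had 0.266 ± 0.0673 FPKM in PND against 0.325 ± 0.151 in CON (unadjusted p 0.666), and it overlaps Sec11a on the same strand. Brs3, the orphan member of the receptor family, held 3 fragments in PND and 1 in CON.

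**Figure D3:**
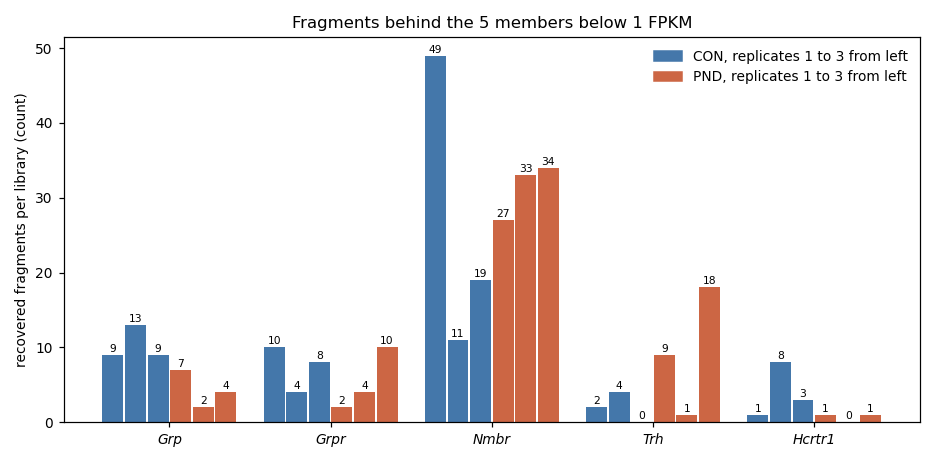
Recovered fragments (vertical axis, counts from 0) of the 5 genes with a mean below 1 FPKM, with 1 bar per library and CON to the left of PND. Grp stands on 9, 13 and 9 fragments in CON and 7, 2 and 4 in PND, Trh on 18 fragments in 1 PND library, and Hcrtr1 on 8 fragments in 1 CON library.

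In the TRH system the hormone precursor gene varied most and its receptor and enzyme little. Trh (ENSMUSG00000005892, chromosome 6, 92242061 to 92244650), the gene of the 5 copies printed above, had 0.735, 0.0914 and 1.39 FPKM in PND replicates 1 to 3. In CON it had 0.193 and 0.355 FPKM in replicates 1 and 2 and was listed at 0 in replicate 3. The highest values were those of 2 PND mice, but PND replicate 2 lay below CON replicates 1 and 2, so the groups overlapped. The fragments were 9, 1 and 18 in PND and 2, 4 and 0 in CON. Per depth, PND held 4.08 times the fragments of CON (exact 95% interval 1.66 to 12.0, for counting error only), while the PND mice themselves ran from 1 to 18 fragments. This gave a log2 fold change of 1.39 (SE 0.86, 95% interval -0.64 to 3.41), with an unadjusted p of 0.150. With a pseudocount of 0.01 it was 2.39 and with a pseudocount of 1 it was 0.49. Single mice decided this value. It was 2.23 without PND replicate 2, where the cut-off was passed (unadjusted p 0.0187), 0.75 without PND replicate 3 and 0.76 without CON replicate 3.

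The transcript of Trh has a GC content of 54.5%, and the library with its highest level, PND replicate 3, also stood high in GC-rich genes, below CON replicate 2. With the GC dependence of each library removed, the log2 fold change of Trh was 1.33 (unadjusted p 0.130). Trh is abundant in the hypothalamus, and 7 hypothalamic markers were measured in these libraries. Nkx2-1, the one with the most fragments, had 0.770, 0.901 and 0.561 FPKM in PND replicates 1 to 3 and 0.372, 0.152 and 0.603 in CON (22, 23 and 17 fragments against 9, 4 and 14). The groups overlapped, with a difference of 0.93 on the log2 scale and an unadjusted p of 0.0673. The summed level of the 7 markers was 2.10, 2.40 and 1.25 FPKM in PND and 1.32, 1.53 and 2.88 FPKM in CON replicates 1 to 3. Gnrh1 made up much of this sum on 3 to 6 fragments per library, and Pmch held 0 to 3. The other 3 tested markers were lower in PND by sign, with log2 fold changes of -0.13 for Gnrh1, -0.13 for Pmch and -0.96 for Agrp, which held 5 fragments in CON replicate 2 and 0 in every other library. These 4 genes were named after their values were seen. The part of GC dependence and of hypothalamic tissue in the Trh values was not tested.

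Trhr (ENSMUSG00000038760, chromosome 15, 44196135 to 44235912), the main TRH receptor of the brain, had 3.20, 2.90 and 3.40 FPKM in PND replicates 1 to 3. Its CON levels were 4.08, 2.62 and 4.34 FPKM. CON held both the highest and the lowest value. The log2 fold change was -0.18 (95% interval -0.70 to 0.34, unadjusted p 0.442), from 102 to 142 fragments per PND library and 95 to 139 per CON library. Trhde (ENSMUSG00000050663, chromosome 10, 114398823 to 114802307) had 6.41, 6.00 and 4.81 FPKM in PND replicates 1 to 3, against 6.60, 6.37 and 5.88 in CON. PND replicate 3 was the lowest of the 6, and the other PND mice lay among the CON mice. Its log2 fold change was -0.14 (95% interval -0.50 to 0.23, unadjusted p 0.408), which leaves out a 2-fold change in either direction, and 430 to 577 fragments stood behind each value. An exon of Trhde overlaps Gm15723 on the opposite strand. Leaving out 1 library moved Trhr between -0.40 (without CON replicate 2) and -0.05 (without CON replicate 3), and Trhde between -0.22 (without PND replicate 1) and -0.02 (without PND replicate 3).

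The other genes that receive or degrade the hormone also had unadjusted p-values above the threshold. Trhr2, the second receptor, was at 0.599 ± 0.156 FPKM in PND against 0.574 ± 0.380 in CON (log2 fold change 0.17, unadjusted p 0.711). Pgpep1, a cytosolic peptidase that can remove the first residue of the hormone, was at 0.857 ± 0.125 FPKM in PND against 0.687 ± 0.2 in CON (log2 fold change 0.31, unadjusted p 0.335). Of the 5 genes of this system, 5 were tested, 3 were higher and 2 lower in PND by sign, and 0 had an unadjusted p below 0.05 by limma.

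The orexin receptors were at very different levels. Hcrtr2 (ENSMUSG00000032360, chromosome 9, 76225880 to 76323856), the receptor more closely tied to wakefulness, had 1.17, 1.22 and 1.04 FPKM in PND replicates 1 to 3. Its CON levels were 1.05, 1.2 and 1.15 FPKM. The values of both groups were interleaved. PND differed from CON by 0.01 on the log2 scale (SE 0.21, unadjusted p 0.959), and the 95% interval of -0.49 to 0.51 corresponds to 0.713 to 1.43 times the CON level on this scale. With 53 to 70 fragments per library, a 2-fold change lay outside the interval.

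Hcrtr1 (ENSMUSG00000028778, chromosome 4, 130130217 to 130139359), a hub gene of the study, was near the limit of these libraries. It had 0.0340, 0 and 0.0320 FPKM in PND replicates 1 to 3 and 0.0401, 0.295 and 0.125 FPKM in CON. The fragments behind these levels were 1, 0 and 1 in PND and 1, 8 and 3 in CON. All PND values were below all CON values, but PND replicates 1 and 3 and CON replicate 1 each held 1 fragment, and what separated them was the depth of the libraries. No PND library was above 3 fragments, the floor taken here. Per depth, CON held 6.87 times the fragments of PND, with an exact 95% interval of 1.53 to 63.2 for counting error only. The mean of 0.0878 FPKM was under the filter, so Hcrtr1 was not tested with the other genes. Fitted without a filter, it had a log2 fold change of -0.94 with an SE of 0.43 and an unadjusted p of 0.0634. Single mice decided whether the cut-off was passed. Without CON replicate 2, which held 8 of the 12 CON fragments, the value was -0.56 (unadjusted p 0.193), and without CON replicate 1 it was -1.30 (unadjusted p 0.0163), which passes. In further alternatives, chosen like these after seeing the data, the cut-off was also passed with voom on recovered fragments (-1.96, unadjusted p 0.0465) and after GC correction (-1.03, unadjusted p 0.0102). Hcrtr1 has a GC content of 58.7%, and CON replicate 2 stood highest of the 6 libraries in GC-rich genes.

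**Figure D4:**
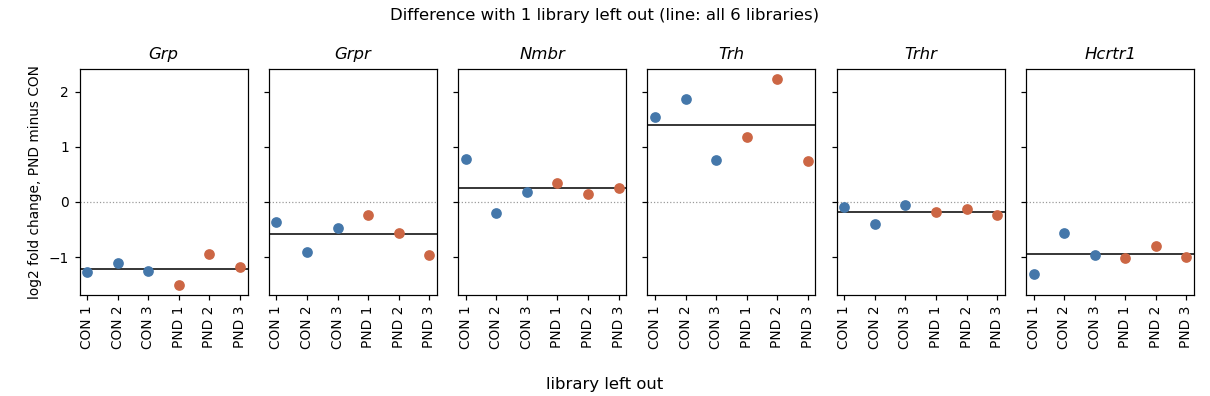
Log2 fold change of PND minus CON (vertical axis, log2(FPKM + 0.1) scale) of 6 genes when the library named on the horizontal axis is left out, with a black line for the value from all 6 libraries. Grp stays between -1.50 and -0.95, Trh moves between 0.75 and 2.23, and Nmbr turns from 0.25 to -0.20 without CON replicate 2. Hcrtr1 was fitted without a filter.

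The wider machinery of these peptides was then read from the same comparison. Of 70 tested genes in 4 lists, covering peptide processing and dense-core vesicles, Gq signalling, other neuropeptides and other neuropeptide receptors, 0 passed the cut-off by limma and 0 by voom. An unadjusted p below 0.05 was found for 1 of them (1.43%) by limma and for 1 by voom, against 3.13% of all genes by limma. By limma it was Pcsk1, the convertase that makes the first cuts in many peptide precursors. It had 13.7, 11.6 and 12.2 FPKM in PND replicates 1 to 3 (mean 12.5 ± 1.07), and 13.9, 18.1 and 15.9 in CON (mean 16.0 ± 2.09). The groups did not overlap, and on the log2 scale PND was at -0.35 against CON with an SE of 0.14 (unadjusted p 0.0384), but PND replicate 1 and CON replicate 1 were nearly equal.

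The median log2 fold change was 0.02 over the 19 genes of peptide processing, with 11 higher and 8 lower by sign. It was -0.02 over 17 tested genes of Gq signalling (7 higher, 10 lower), 0.06 over 14 other neuropeptides (8 higher, 6 lower) and 0.02 over 20 other neuropeptide receptors (12 higher, 8 lower). Over all genes tested it was 0.01. The bombesin system had a median of -0.38 over 4 tested genes, with 1 higher and 3 lower, and Grp was the 1 gene among them past the cut-off.

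Markers of cell types and neighbouring regions were given beside these genes, and their part in the differences was not tested. Of 10 cortical glutamatergic neuron markers, 5 were higher and 5 lower in PND by sign. Of 10 interneuron markers, the cells in which Grpr is known, 7 were higher and 3 lower by sign, and 0 had an unadjusted p below 0.05 by limma. In the claustrum and endopiriform list 4 of 6 tested genes were higher and 2 lower, and its summed level of 20.8 to 24.7 FPKM in PND lay within the 19.2 to 30.1 FPKM of CON. In the olfactory bulb list 1 was higher and 1 lower of 2 tested, with summed levels of 1.38 to 1.71 FPKM in PND and 0.966 to 2.40 FPKM in CON. The hypothalamic list had 1 higher and 3 lower of 4 tested.

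Markers of the striatum, thalamus and choroid plexus had some genes past an unadjusted p of 0.05. The 9 striatal markers were all higher in PND by sign, and Pde10a had an unadjusted p of 0.0278 (13.1 ± 2.73 against 8.52 ± 2.21 FPKM). The summed striatal level was 134 to 153 FPKM in PND, inside the 88.3 to 202 FPKM of CON. In the thalamic list, 5 of 6 tested genes were higher and Prkcd had an unadjusted p of 0.0375 (0.819 ± 0.0827 against 0.469 ± 0.0977 FPKM). In the choroid plexus list, 5 of 6 tested genes were higher, and 1, Sostdc1, passed the cut-off (0.284 ± 0.0234 against 0.0519 ± 0.0449 FPKM). Sostdc1 rested on only 4, 4 and 5 fragments in PND replicates 1 to 3 and on 1, 0 and 1 in CON. Clic6 had an unadjusted p of 0.0319, the summed level of the list was 3.52 to 4.10 FPKM in PND against 1.69 to 3.48 in CON, and Ttr, the defining gene of this tissue, was at most 0.207 FPKM in any library. Of 13 glial and vessel markers, 6 were higher and 7 lower in PND by sign. Gfap was higher (21.8 ± 3.65 against 13.6 ± 1.1 FPKM, unadjusted p 0.00294). Aqp4 was lower (24.0 ± 2.14 against 30.8 ± 3.85 FPKM, unadjusted p 0.0275), as was P2ry12 (5.49 ± 1.36 against 9.27 ± 1.50 FPKM, unadjusted p 0.00767). The other microglial markers of the list had the opposite sign, with log2 fold changes of 0.15 for Cx3cr1 (unadjusted p 0.456) and 0.52 for Tmem119 (unadjusted p 0.431), both named after their values were seen. The summed level of this list was 235 to 260 FPKM in PND against 253 to 286 in CON. Gapdh, a level reference, was at 5.05 ± 1.81 FPKM in PND against 3.87 ± 1.26 in CON (log2 fold change 0.36, unadjusted p 0.308).

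The genes with the profile most like that of Grp and of Trh were found over the 6 libraries, as the smallest root-mean-square difference between standardised log2 values among 12323 genes that averaged 1 FPKM or more. For Grp these were Gm6277 with a difference of 0.0741 SD, Gm13293 with 0.102 SD and Srsf4, a splicing factor gene, with 0.145 SD. The median over all genes was 1.36 SD. For Trh they were Tmem106c with 0.119 SD, Nicn1 with 0.140 SD and Crmp1, a gene of axon guidance signalling, with 0.159 SD, against a median of 1.33 SD. The changes were smaller in these genes, as Srsf4 ran from 5.55 to 6.56 FPKM in PND and from 7.45 to 8.13 FPKM in CON, and Crmp1 from 7.10 to 9.61 and from 6.81 to 7.99 FPKM. The likeness is a description over 6 libraries, whose depth and GC dependence all genes share.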

How the data were processed

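Total RNA of the prefrontal cortex was depleted of ribosomal RNA and sequenced. The authors filtered reads with Seqtk, aligned them with HISAT2, counted fragments per gene with StringTie, scaled them by TMM, a trimmed mean of ratios between libraries, and deposited FPKM, with 1 column per mouse. The build and annotation for the mRNA were not given in the sources used here. The submitters' processing notes list mm8, mm9 and Bowtie 0.12.2 with no role, while the paper names Bowtie for its miRNA reads only. Strand use in counting was not stated. Groups came from the treatment labels and replicate numbers from the titles. Symbols were matched for 20866 of 21006 identifiers. Positions and GC content are those of GENCODE M21 (GRCm38), which held 20877.

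The groups were compared with limma 3.58.1 (lmFit, eBayes with trend; R 4.3.3) on log2(FPKM + 0.1), with Benjamini-Hochberg adjustment over the 18185 genes that averaged 0.1 FPKM or more. Fold changes on this scale understate the change of low genes. Fragments were recovered where depth-scaled values of a gene had whole-number ratios between libraries (within 0.03 of whole numbers up to 3000), which held for 97.2% of genes with 3 or more libraries above 0. The common factor was set by exon length. On simulated fragments for 17915 genes, 194 of 200 genes changed 4-fold were called with the simulated sign, among 363 calls. Most of the other calls were of genes left unchanged. The changed genes were drawn above a minimum number of fragments, and the simulated spread between mice was small. This recovery therefore does not carry over to members such as Trh and Hcrtr1, which varied more between mice. No 2 libraries held identical values. Members, lists, tests and alternatives were chosen with earlier results of these data known. Named were all 8 members, all measured genes of the 3 systems, up to 4 genes per other list with an unadjusted p below 0.05, Gapdh, and the 3 genes most alike in profile to Grp and to Trh. A marker gene that this rule names is not reported here.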

Additional observations from a re-analysis of the deposited data

How the results depend on the processing

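The alternatives left the direction of Grp, Grpr, Trh, Trhr and Trhde as it was in every fit. The unadjusted p of Grp lay between 0.00622 and 0.0383 over 10 alternatives with all libraries, and between 0.00795 and 0.0460 when a library was left out. With a pseudocount of 1, 25 genes in all passed the cut-off in place of 241, and 0 of the members did. With a mean of at least 1 FPKM, 59 genes passed, and of the 3 members still tested 0 did. Leaving out a library gave 235 to 388 genes, with 388 without CON replicate 2. It left 1 member past the cut-off each time, which was Grp except without PND replicate 2, where it was Trh. Values near 0 changed sign. Hcrtr2 was at -0.02 with quantile normalization and ranged from -0.04 to 0.07 when a library was left out, and Nmbr ranged from -0.20 to 0.77. Hcrtr1 without a filter was at -1.96 with voom, an alternative added after seeing the data, and ranged from -1.30 to -0.56 when a library was left out, passing the cut-off without CON replicate 1 (unadjusted p 0.0163). The cause of these shifts was not tested. The replicate numbers shared by the groups were not taken as pairs of mice. Deviations of same-numbered libraries from their group means correlated at -0.049, -0.451 and 0.027 across genes. The mean of these correlations was -0.157, against 0.079 for different numbers. So few correlations cannot show whether same-numbered mice shared a batch. With the replicate block, 226 genes passed the cut-off, 197 of them among the 241, and the unadjusted p of Grp was 0.0383. After GC correction with the replicate block, 269 genes passed. Depth limits Grp, Grpr, Trh and Hcrtr1, which held at most 18 fragments in any library.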
